A study of Homo sapiens with 27 samples.

Results

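To examine how depletion of MMP-2 altered the gene expression response of U2OS cells to overconfluence, the change in mRNA level between subconfluent cells (day -2) and overconfluent cells (day +2) was compared between the MMP2sh1 line and the pLKO.1 control line. The quantity described here is the line by day interaction, which is the log2 fold change from day -2 to day +2 in MMP2sh1 minus the same log2 fold change in the control. Its members are the 12 libraries of these 4 groups, chosen by their labels, of 27 libraries in the series. A positive value marks a gene that rose more, or fell less, in MMP2sh1, and such genes are called higher. A negative value marks a gene that rose less, or fell more, in MMP2sh1, and such genes are called lower.

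The study profiled poly(A) RNA of the human osteosarcoma line U2OS carrying either an empty pLKO.1 vector or the same vector with an shRNA against MMP2. All lines were stably transduced by lentivirus and selected with puromycin, so the control cells carried the vector and had been through selection as well, and each hairpin was represented by 1 stable line. The starting density was 30% confluence on day -2, confluence was reached on day 0, and by day +2 the cultures were overconfluent. The 4 groups used here were the control and MMP2sh1 (hairpin 23) at day -2 and at day +2, with 3 libraries each, described by the study as independent biological replicates. Because only 1 line carried this hairpin, effects of MMP2 depletion, of the hairpin's other targets and of the selection of this line cannot be told apart here.

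MMP-2 is a zinc-dependent endopeptidase best known for degrading basement membrane collagen and gelatin outside the cell, and a nuclear form clips the amino-terminal tail of histone H3. Cells that grow past confluence compete for nutrients, growth factors, oxygen and space, and typically slow their cycle, deposit extracellular matrix and change metabolic programs. An interaction isolates what differs in this response between the lines, and not the response itself or a constant difference between the lines.

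The 12 libraries held 33778818 to 59374327 reads assigned to genes, with a median of 39478008. Levels are given in CPM, which are read counts scaled to the effective library size. The marker sums of this paragraph were scaled to the total reads assigned to genes instead. The summed level of 12 mesenchymal markers was 3523 to 4739 CPM over the libraries, although TWIST1, a defining mesenchymal transcription factor, had 0 reads in all 12 libraries. Markers of blood cells summed to at most 3.71 CPM and those of endothelial cells to 13.6 to 23.8 CPM. Epithelial markers summed to 442 to 809 CPM, mainly from KRT8 and KRT18, and this sum was 547 to 580 and 442 to 464 CPM in the control at day -2 and day +2, against 747 to 809 and 500.3 to 514 CPM in MMP2sh1. The share of reads outside annotated exons went from 6.56 to 6.60% at day -2 to 7.53 to 7.93% at day +2 in the control, and from 5.89 to 6.78% to 8.06 to 8.52% in MMP2sh1, and the mitochondrial share from 4.16 to 5.30% to 5.49 to 6.37% in the control and from 4.24 to 6.55% to 6.53 to 7.15% in MMP2sh1. Their part in the differences below was not tested. The library of MMP2sh1 replicate 1 at day -2 stood apart from the other replicates of its group, with chi-square values, divided by their degrees of freedom, of 17.9 and 22.5 against them, where the other replicate pairs had 5.66 to 12.4; without it the interaction called 1523 genes instead of 1520. RNA from fewer cells of a kind and less RNA per cell cannot be told apart in such bulk libraries.

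MMP2 itself was depleted on both days and rose in both lines. Its level was 221, 225.8 and 248 CPM in the 3 control libraries at day -2 and 496, 479 and 492 CPM at day +2. In MMP2sh1 it was 33.9, 39.5 and 46.7 CPM at day -2 and 97.1, 93.6 and 99.9 CPM at day +2. Every MMP2sh1 library lay below every control library, and on the log2 scale MMP2sh1 differed from the control by -2.53 at day -2 and by -2.34 at day +2 (adjusted p = 1.47e-20 and 2.97e-20, edgeR quasi-likelihood test). The rise in the MMP2sh1 line was not detectably different from that in the control, with an interaction of 0.20 ± 0.10 (log2 ± SE; adjusted p = 0.276). CTSB, the gene of the lysosomal protease cathepsin B, rose by 1.10 in the control and by 1.02 in MMP2sh1 on the log2 scale, and its interaction of -0.081 ± 0.077 did not pass the test (adjusted p = 0.63). MMP14, which encodes the membrane protease that activates proMMP-2, differed. Its level went from 141, 150.3 and 148 CPM to 256, 242 and 239.5 CPM in the control and from 93.5, 116 and 123 CPM to 308, 289.5 and 274 CPM in MMP2sh1. MMP2sh1 therefore began below the control and ended above it, with no overlap at either day, and the interaction was 0.64 ± 0.10 (adjusted p = 5.67e-05).

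Of 20548 genes tested, 1520 (7.4%) passed an adjusted p of 0.05 in the interaction, 928 higher (4.52%) and 592 lower (2.88%). By comparison, 10583 genes (51.5%) changed from day -2 to day +2 in the control (25.3% up and 26.2% down) and 11019 (53.6%) in MMP2sh1 (27.1% up and 26.5% down). The interaction genes were mostly genes with graded differences, since their median absolute log2 difference was 0.46 and 96 of the higher and 95 of the lower genes exceeded 2-fold. The largest class, 311 genes, rose in both lines and rose more in MMP2sh1. A further 225 genes passed as risen in MMP2sh1 alone, 166 fell in both lines but less in MMP2sh1 and 158 passed as fallen in the control alone. Among the lower genes, 71 rose in both lines but less in MMP2sh1, 232 fell in both lines and more in MMP2sh1, 148 passed as fallen in MMP2sh1 alone and 109 passed as risen in the control alone. The 2 lines moved in opposite directions, each past its own test, at 97 genes, of which 66 rose in MMP2sh1 and 31 fell. The remaining 3 genes passed as changed in neither line. Some list counts below also use an unadjusted p under 0.05, which 4118 of the 20548 genes passed in the interaction in either direction. Others use DESeq2, which tested 37891 genes and called 1036 higher and 820 lower.

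**Figure D1:**
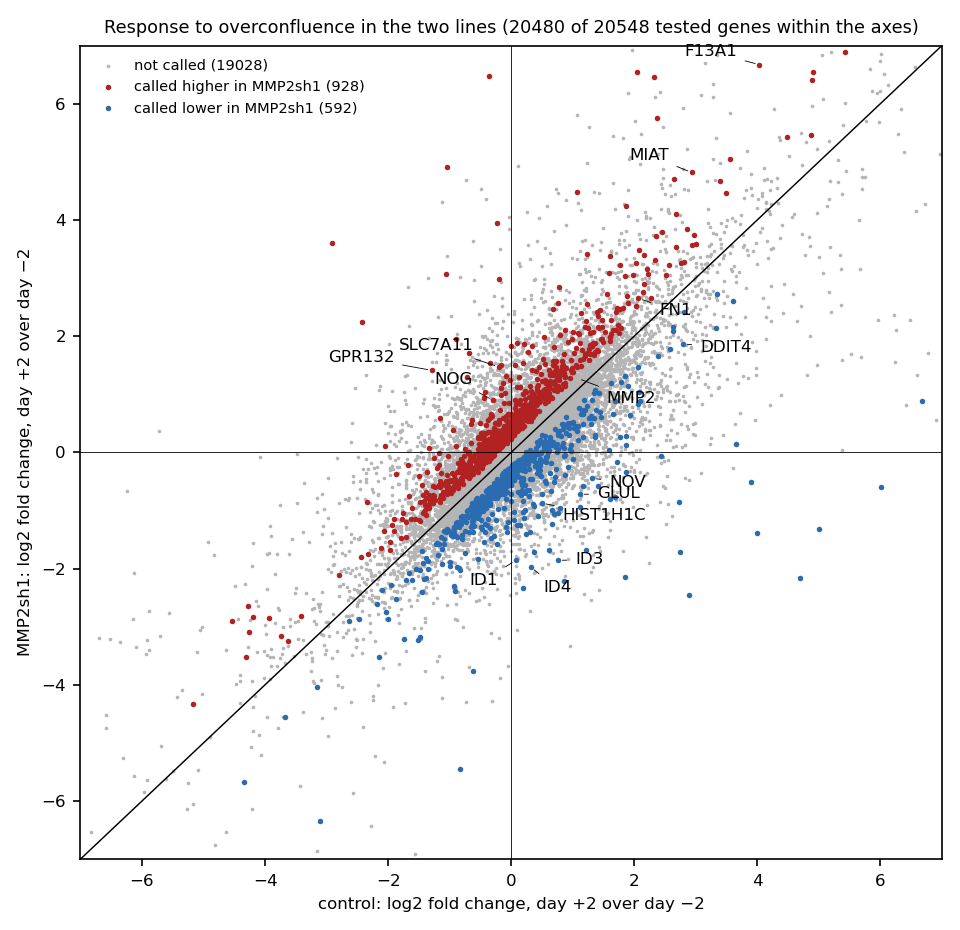
Log2 fold change from day -2 to day +2 in the control (horizontal axis) and in MMP2sh1 (vertical axis) for each tested gene, with the 928 genes called higher in red, the 592 called lower in blue, uncalled genes in grey and the line of equal response in black. Most called genes lie close to the line of equal response, while ID3, ID1, ID4, NOV and GLUL lie well below it and SLC7A11, GPR132 and NOG well above it.

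The gene with the smallest adjusted p in the whole comparison was ID3, and the ID family as a whole was lower. ID proteins lack a DNA-binding domain and hold basic helix-loop-helix transcription factors inactive, and their genes are classical direct targets of bone morphogenetic protein (BMP) signalling through SMAD1, SMAD5 and SMAD9. ID3, at positions 23884417 to 23885992 of chromosome 1 in the GRCh37 annotation, had 101, 104 and 93.5 CPM in the control at day -2 and 149, 166 and 191 CPM at day +2. In MMP2sh1 it had 105, 106 and 107 CPM at day -2 and 29.9, 31.7 and 26.2 CPM at day +2. The MMP2sh1 libraries lay just above the control libraries at day -2 and far below them at day +2, because ID3 rose in the control and fell in MMP2sh1. The interaction was -2.62 ± 0.11 (adjusted p = 7.81e-17). ID1 had 191, 205 and 177 CPM and then 173, 189.5 and 239 CPM in the control, where its change did not pass the test. It fell in MMP2sh1, from 211, 204 and 227 CPM to 60.9, 62.5 and 53.9 CPM, with an interaction of -1.93 ± 0.12 (adjusted p = 1.35e-12). ID4, expressed less, had a mean of 9.76 ± 0.659 CPM and then 12.1 ± 1.67 CPM in the control (SD, n = 3), against 12.5 ± 1.20 and 3.18 ± 0.508 CPM in MMP2sh1, and an interaction of -2.30 ± 0.19 (adjusted p = 1.48e-09). ID2, chosen after its values were seen in order to complete the family, had the smallest difference, -0.58 ± 0.14 (adjusted p = 0.0114).

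Several regulators of BMP signalling were called as well. SMAD6, an inhibitory SMAD that BMP signalling itself induces, stood at 40.6 ± 3.15 and 39.0 ± 4.30 CPM in the control at the 2 days and at 45.2 ± 3.19 and 19.8 ± 1.54 CPM in MMP2sh1, giving an interaction of -1.14 ± 0.12 (adjusted p = 1.72e-07). NOG, which encodes the secreted BMP antagonist noggin, went the other way. It had 70.6, 76.2 and 79.8 CPM and then 66.8, 62.2 and 55.6 CPM in the control. The MMP2sh1 libraries had 59.2, 57.3 and 64.3 CPM and then 114, 112 and 110.0 CPM. NOG thus fell in the control and rose in MMP2sh1, where all day +2 libraries exceeded all 9 others, with an interaction of 1.19 ± 0.10 (adjusted p = 6.59e-10). BMPR1B, a type I BMP receptor, rose from 9.46 ± 0.318 to 23.1 ± 3.32 CPM in MMP2sh1, while it had 11.4 ± 0.572 and 12.4 ± 1.24 CPM in the control (interaction 1.16 ± 0.16, adjusted p = 1.08e-05). The BMP ligand genes did not pass: BMP4, the most abundant of them, had an interaction of -0.16 ± 0.075 (adjusted p = 0.221). Of 23 tested BMP and ID genes, 4 were called higher and 5 lower (17.4% and 21.7%, beside 4.52% and 2.88% of all genes). The median interaction of the list was -0.013 on the log2 scale, beside 0.0082 over all tested genes. Its members SMAD1, SMAD9, BMPR1A, CHRD and FST were not called. Nor were SMAD7 and BAMBI, counted among the TGF-beta genes, or MSX1 and MSX2, counted among the osteoblast genes.

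**Figure D2:**
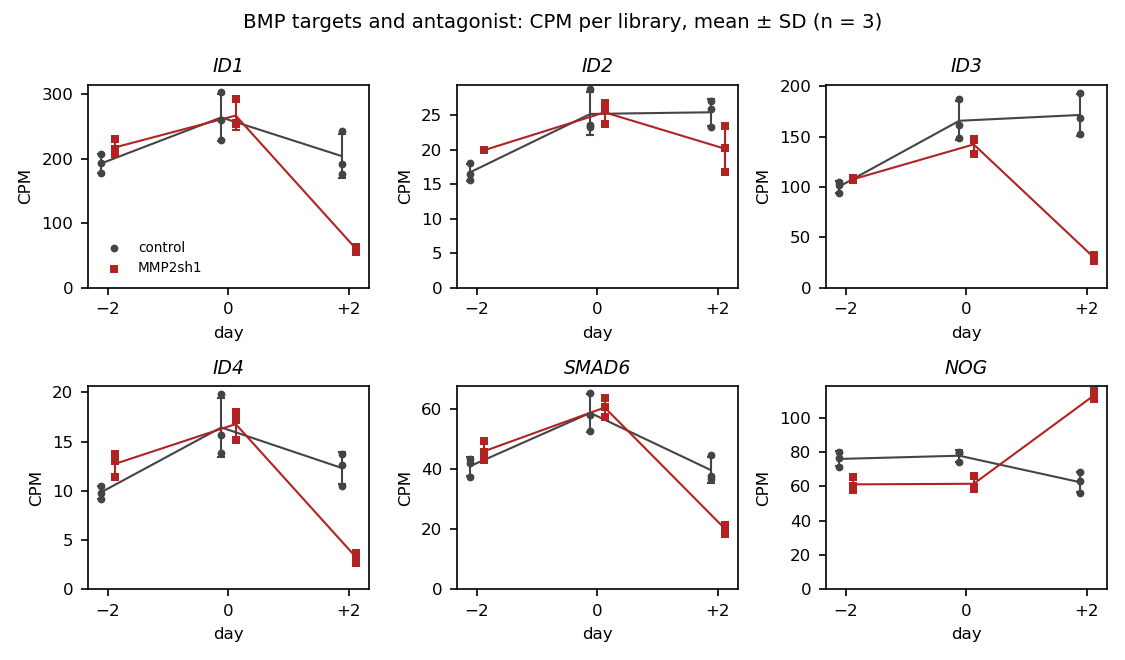
Level in CPM (vertical axis) of 4 ID genes, SMAD6 and NOG in each library at days -2, 0 and +2 (horizontal axis), scaled over the 18 libraries of both lines; points are libraries, lines join the means and bars are the SD (n = 3). The lines are close at day -2 and day 0 for ID1, ID4 and SMAD6, and at day +2 the MMP2sh1 libraries fall below all control libraries for these genes and ID3, and rise above them for NOG.

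The list with the largest share of called members was that of ATF4 target genes. ATF4 is the transcription factor that amino acid shortage and other inputs of the integrated stress response induce, and its targets make, import and charge amino acids. Of 36 listed and tested genes, 24 were called higher and 1 lower (66.7% and 2.78%, beside 4.52% and 2.88% of all genes), and the median interaction was 0.45. The median response of the list was -0.25 in the control and 0.11 in MMP2sh1. SLC7A11, the cystine import subunit of system xc-, had 55.1, 53.2 and 52.1 CPM and then 54.9, 43.8 and 40.8 CPM in the control. Its MMP2sh1 levels were 34.6, 38.4 and 38.4 CPM and then 90.3, 99.5 and 119 CPM. It thus started lower and ended higher in MMP2sh1, with no overlap between the lines at either day, and its interaction was 1.67 ± 0.13 (adjusted p = 2.24e-10). ASNS, asparagine synthetase, rose in both lines, from 99.0 ± 3.77 to 136 ± 11.6 CPM in the control and from 91.6 ± 1.38 to 253 ± 24.2 CPM in MMP2sh1 (interaction 1.01 ± 0.092, adjusted p = 8.81e-09). ALDH1L2, a mitochondrial folate dehydrogenase, had 8.96 ± 1.02 and 8.99 ± 0.976 CPM in the control and rose from 5.96 ± 1.44 to 21.3 ± 2.45 CPM in MMP2sh1 (interaction 1.83 ± 0.20, adjusted p = 2.60e-07). FGF21, a metabolic hormone gene, had the largest difference of the list at a low level, with 0.846, 1.11 and 0.525 CPM and then 0.652, 0.931 and 0.580 CPM in the control and 0.243, 0.0861 and 0.195 CPM and then 1.73, 1.30 and 1.08 CPM in MMP2sh1 (adjusted p = 0.00266).

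Other called members of the list included serine and one-carbon enzymes, transporters and tRNA synthetases. PSAT1, of serine synthesis, fell from 58.8 ± 1.81 to 47.7 ± 5.73 CPM in the control and rose from 51.4 ± 4.49 to 79.0 ± 6.11 CPM in MMP2sh1 (interaction 0.93 ± 0.11, adjusted p = 1.67e-06). MTHFD2, the mitochondrial one-carbon enzyme, fell from 206 ± 4.66 to 128 ± 12.999 CPM in the control and had 162 ± 5.97 and 162 ± 13.3 CPM in MMP2sh1 (interaction 0.70 ± 0.091, adjusted p = 6.01e-06). SLC1A5, the glutamine carrier, fell in the control and rose in MMP2sh1 (interaction 0.73 ± 0.083, adjusted p = 7.36e-07). PCK2, which makes phosphoenolpyruvate in mitochondria, had 44.7 ± 1.77 and 49.2 ± 1.61 CPM in the control and rose from 39.4 ± 2.30 to 73.4 ± 1.67 CPM in MMP2sh1 (interaction 0.75 ± 0.092, adjusted p = 2.16e-06). The higher calls included DDR2, a collagen receptor tyrosine kinase, and VLDLR, a lipoprotein receptor, which have no part in amino acid supply. The member called lower was GDF15, a secreted stress cytokine, which went from 4.33 ± 0.630 to 26.1 ± 2.25 CPM in the control and from 3.28 ± 0.459 to 11.3 ± 1.25 CPM in MMP2sh1 (interaction -0.81 ± 0.19, adjusted p = 0.00606). ATF4 itself did not pass, with an interaction of 0.22 ± 0.075 (adjusted p = 0.0738), and neither did its partner-encoding gene DDIT3, at -0.42 ± 0.19 (adjusted p = 0.211). Members of the overlapping list of amino acid and glucose carriers were called higher 9 times and lower 2 times among 30 tested. These shares were 30% and 6.67%, beside 4.52% and 2.88% of all genes.

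ATF4 binds, as a dimer with a C/EBP factor, the composite element whose letters TGANGCAA were searched on both strands of the RefSeq promoter windows, which run from 250 bases before to 50 bases after a start (GRCh38.p14). Of the 24 ATF4-list genes called higher, 19 matched a window and 6 of these held the letters (31.6%), against 1 of 9 matched members not called (11.1%). Here a gene counted if any of its windows held the letters. Over all 35116 windows, counted singly, the share was 3.22%, which is not the same measure. Since the list is one of ATF4 targets, its excess over all windows is no result of these data. The matching stretches of the 6 genes called higher are shown to place the element in its surroundings, in 30 bases each on the strand that reads TGANGCAA, with the element in capitals. They lie at chr19:33374060-33374089 (CEBPG, + strand), chr15:40953251-40953280 (CHAC1, - strand), chr16:70289675-70289704 (AARS, + strand), chr19:46784893-46784922 (SLC1A5, - strand), chr1:162632463-162632492 (DDR2, - strand) and chr19:48755459-48755488 (FGF21, - strand).
CEBPG: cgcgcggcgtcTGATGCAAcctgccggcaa
CHAC1: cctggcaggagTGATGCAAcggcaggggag
AARS: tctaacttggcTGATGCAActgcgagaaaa
SLC1A5: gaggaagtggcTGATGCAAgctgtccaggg
DDR2: catccacaggcTGATGCAAgatgcctttga
FGF21: ctcctcctcccTGATGCAAtcctggtgttt
The letters in common are those searched for, and the window of NARS, which was not called, holds them too. A match of letters is a description of the window and not a measured binding site.

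**Figure D3:**
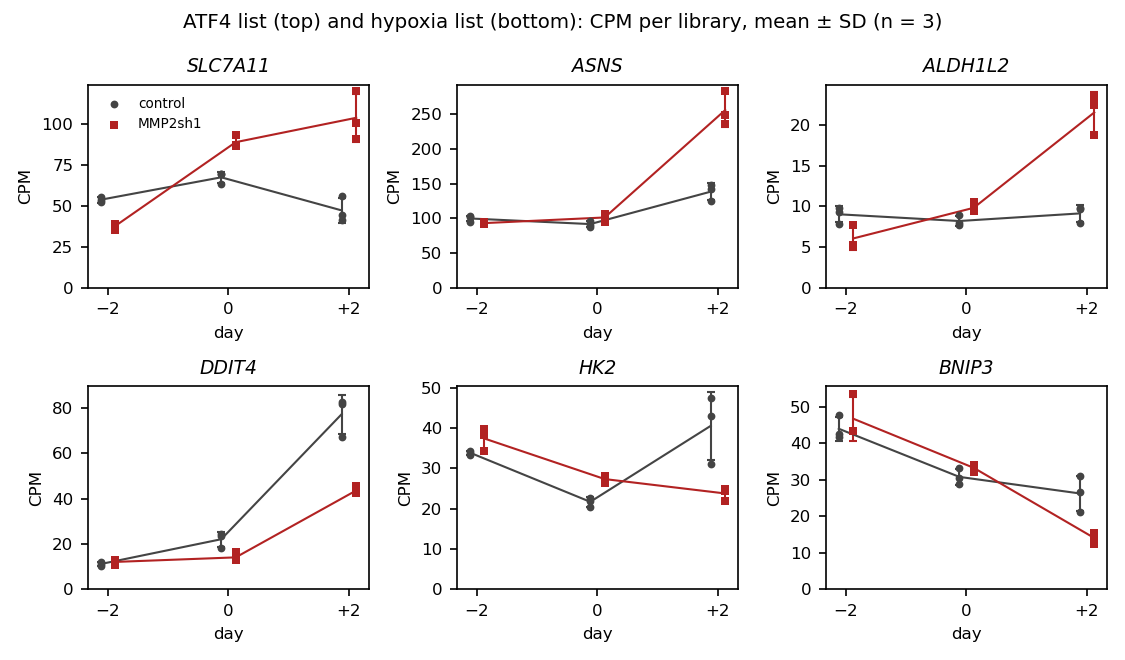
Level in CPM (vertical axis) of 3 ATF4 targets (top) and 3 hypoxia or glycolysis genes (bottom) in each library at days -2, 0 and +2 (horizontal axis), scaled over the 18 libraries of both lines; points are libraries, lines join the means and bars are the SD (n = 3). At day +2 the MMP2sh1 libraries lie above all control libraries for SLC7A11, ASNS and ALDH1L2 and below them for DDIT4, HK2 and BNIP3.

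Called hypoxia and glycolysis genes were mostly lower. Many of them are targets of hypoxia-inducible factor, which raises glucose uptake, lactate production and oxygen-saving genes. Of 39 tested, 20 were called lower and 1 higher (51.3% and 2.56%, beside 2.88% and 4.52% of all genes), with a median interaction of -0.33. The list's median response was 0.043 in the control and -0.42 in MMP2sh1. DDIT4, an inhibitor of mTORC1 that hypoxia and energy stress induce, had 10.8, 10.1 and 12.05 CPM and then 66.0, 81.7 and 80.8 CPM in the control. MMP2sh1 had 10.5, 12.1 and 12.9 CPM and then 42.0, 44.9 and 42.4 CPM. It rose in both lines and less in MMP2sh1, where no day +2 library reached the control libraries (interaction -0.93 ± 0.13, adjusted p = 1.19e-05). HK2, which commits glucose to glycolysis, had 34.1, 33.6 and 33.4 CPM and then 30.5, 42.6 and 46.8 CPM in the control. In MMP2sh1 it fell, from 39.2, 33.8 and 37.7 CPM to 24.6, 24.2 and 21.7 CPM. Control replicate 1 at day +2 lay below the day -2 controls while the other two control libraries rose, and the interaction was -0.90 ± 0.14 (adjusted p = 0.000111). BNIP3, a mediator of mitophagy, fell in both lines, from 43.7 ± 3.18 to 25.9 ± 4.91 CPM in the control and from 46.1 ± 5.82 to 13.9 ± 1.48 CPM in MMP2sh1 (interaction -0.97 ± 0.15, adjusted p = 7.36e-05).

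Of the enzymes of glycolysis in the list, ALDOA and PGAM1 fell in both lines and fell further in MMP2sh1. ALDOA went from 1243 ± 33.2 to 843 ± 78.3 CPM in the control and from 1498 ± 67.3 to 739.6 ± 17.2 CPM in MMP2sh1 (interaction -0.46 ± 0.078, adjusted p = 0.000236). PGAM1 went from 519.5 ± 6.23 to 311 ± 27.2 CPM and from 650.5 ± 27.2 to 283 ± 10.8 CPM in the same order (interaction -0.46 ± 0.079, adjusted p = 0.000262). Part of both differences lay at day -2, where MMP2sh1 exceeded the control by 0.27 for ALDOA and 0.32 for PGAM1 on the log2 scale. ENO2, the enolase of neurons and many tumours, had 153 ± 3.23 and 167 ± 21.9 CPM in the control and fell from 146 ± 2.11 to 109 ± 6.99 CPM in MMP2sh1 (interaction -0.56 ± 0.10, adjusted p = 0.000255). CA9, a carbonic anhydrase that is a sensitive hypoxia marker, was close to the detection limit, with 0.104, 0.213 and 0.146 CPM and then 0.368, 0.882 and 1.84 CPM in the control and 0.378, 0.258 and 0.390 CPM and then 0.155, 0.153 and 0 CPM in MMP2sh1 (adjusted p = 0.00814, lost under some alternatives). Not all members followed: GAPDH had an interaction of -0.19 ± 0.072 (adjusted p = 0.126), SLC2A1, the main glucose carrier, of -0.085 ± 0.079 (adjusted p = 0.619) and PFKP of 0.19 ± 0.092 (adjusted p = 0.256). The member called higher was VEGFA, the vascular growth factor, named after its values were seen, at 0.48 ± 0.093 (adjusted p = 0.00123).

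**Figure D4:**
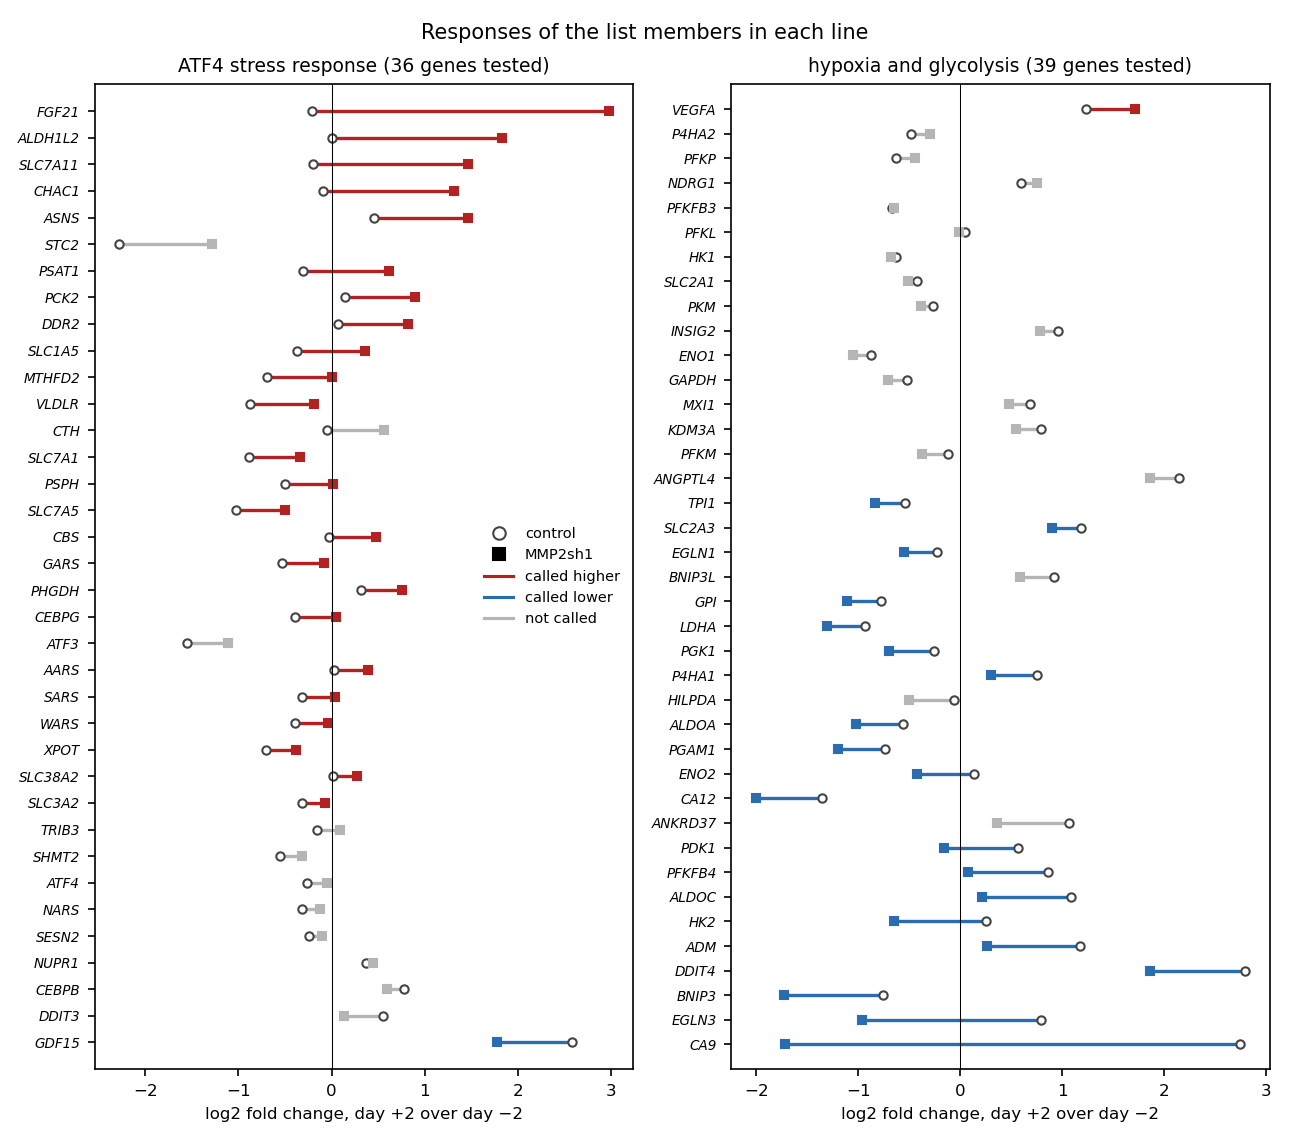
Log2 fold change from day -2 to day +2 (horizontal axis) in the control (open circles) and in MMP2sh1 (squares) for the 36 ATF4 targets (left) and the 39 hypoxia and glycolysis genes (right), with a bar joining the lines that is red where called higher, blue where called lower and grey where not called. The red bars of 24 ATF4 targets run to the right from the control and the blue bars of 20 hypoxia and glycolysis genes run to the left.

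Histone genes were called in a single direction. Most histone mRNAs of the cell cycle end in a stem-loop and lack a poly(A) tail, so poly(A) libraries see mainly replacement histones and the polyadenylated forms that some cluster genes make, typically when cells leave the cycle. Of 55 tested, 11 were called lower and 0 higher in the edgeR quasi-likelihood test (20% lower, beside 2.88% of all genes). The median was -0.44. At an unadjusted p under 0.05 there were 21 lower and 0 higher, beside 4118 of all 20548 genes in either direction. DESeq2 called 14 lower and 0 higher. Leaving out each library in turn, and every other setting tried, gave 9 to 15 lower and 0 higher. HIST1H1C, a linker histone gene, had 138, 149 and 119.6 CPM and then 177, 198 and 197 CPM in the control. Levels in MMP2sh1 were 172, 161 and 162 CPM and then 97.6, 85.3 and 87.0 CPM. It rose in the control and fell in MMP2sh1 without overlap at day +2 (interaction -1.37 ± 0.10, adjusted p = 4.08e-11). HIST1H2AC went from 61.6 ± 0.558 to 52.6 ± 1.91 CPM in the control and from 98.0 ± 6.38 to 33.0 ± 0.467 CPM in MMP2sh1, so that MMP2sh1 was above the control before and below it after (interaction -1.35 ± 0.089, adjusted p = 1.34e-11). HIST1H2BK, at 189 ± 4.90 and 195 ± 12.2 CPM in the control, fell from 265 ± 11.3 to 129.7 ± 2.85 CPM in MMP2sh1 (interaction -1.07 ± 0.077, adjusted p = 4.79e-11). HIST2H2BE rose in both lines and less in MMP2sh1 (interaction -0.86 ± 0.10, adjusted p = 8.69e-07). Cluster histone genes are near-identical in their coding parts, so reads can be split or lost between copies and the values of single genes are uncertain.

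Of the genes of the extracellular matrix and its receptors, most were not called, and most of those called were higher. Of 34 tested matrix glycoproteins and proteoglycans, 11 were called higher and 0 lower by edgeR's quasi-likelihood test, with a median of 0.22. The share called higher was 32.4%, beside 4.52% of all genes higher and 2.88% lower. At an unadjusted p under 0.05 there were 13 higher and 2 lower, beside 4118 of all 20548 genes in either direction. DESeq2 called 9 higher and 0 lower. Of 30 integrin and laminin genes, 12 were called higher and 1 lower (40.0% and 3.33%, beside 4.52% and 2.88% of all genes), with a median of 0.28. ITGA6, the laminin-binding integrin chain, fell from 83.2 ± 2.87 to 72.3 ± 2.55 CPM in the control and rose from 57.5 ± 1.04 to 84.1 ± 1.22 CPM in MMP2sh1 (interaction 0.75 ± 0.081, adjusted p = 2.71e-07). ITGB1, the common partner chain of matrix integrins, had 1243, 1217 and 1232 CPM and then 1493, 1383 and 1349 CPM in the control. In MMP2sh1 it had 893, 942 and 935 CPM and then 1353, 1350.3 and 1389 CPM. MMP2sh1 started below every control library and ended at the control's level (interaction 0.37 ± 0.067, adjusted p = 0.000512). TNC, an adhesion-modulating glycoprotein, fell from 172 ± 10.6 to 125 ± 12.6 CPM in the control and rose from 169 ± 22.4 to 212 ± 16.6 CPM in MMP2sh1 (interaction 0.78 ± 0.11, adjusted p = 1.90e-05). LAMA1, a laminin alpha chain, was the member called lower, at -0.43 ± 0.09 (adjusted p = 0.00277).

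FN1, the gene of fibronectin, rose from 655, 806 and 804 CPM to 3538, 2906 and 3039.7 CPM in the control. In MMP2sh1 it rose from 393, 633 and 707 CPM to 3646, 3745 and 3475 CPM. The lines overlapped at both days, and MMP2sh1 replicate 1 was the lowest at day -2; the interaction was 0.58 ± 0.16 (adjusted p = 0.0225), and its adjusted p was above 0.05 without any of 5 libraries (at most 0.0748) and 0.176 with DESeq2. COL22A1, a collagen of tissue junctions, rose from 17.7 ± 2.25 to 53.4 ± 5.69 CPM in the control and from 13.7 ± 1.04 to 117 ± 11.6 CPM in MMP2sh1 (interaction 1.498 ± 0.13, adjusted p = 2.96e-09). The fibrillar collagen COL3A1, already lower in MMP2sh1 at day -2, rose from 41.2 ± 1.08 to 81.0 ± 3.60 CPM in the control and from 11.9 ± 2.29 to 36.0 ± 3.12 CPM in MMP2sh1 (interaction 0.62 ± 0.13, adjusted p = 0.0021). In all, 3 of 11 fibrillar and 5 of 22 nonfibrillar collagen genes were called higher and 0 and 1 lower. The shares called higher were 27.3% and 22.7%, beside 4.52% of all genes. The count of higher nonfibrillar collagens fell to 3 without replicate 1 of MMP2sh1 at day -2, replicate 2 of MMP2sh1 at day +2, control replicate 2 or 3 at day -2 or control replicate 3 at day +2, and rose to 8 without MMP2sh1 replicate 3 at day +2. The count of higher integrins and laminins fell from 12 to 3 without control replicate 3 at day +2, to 4 without control replicate 2 at day +2, to 5 without MMP2sh1 replicate 2 of either day and to 6 without any control library of day -2 or MMP2sh1 replicate 1 of day -2. The count of higher glycoproteins fell from 11 to 5 without control replicate 3 of day -2 or control replicate 2 of day +2, to 6 without control replicate 1 of day -2 or control replicate 3 of day +2, and to 7 without replicate 2 of day -2 in either line. The medians of the lists moved little, within 0.19 to 0.31 for integrins and laminins and 0.20 to 0.29 for glycoproteins.

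Of 24 tested cholesterol genes, 23 fell in the control and 21 in MMP2sh1, and 1 rose in each line. SREBP-2 drives these genes when cell sterol is low. In the interaction, 8 were called higher and 0 lower by edgeR's quasi-likelihood test, and 8 and 0 by DESeq2. At an unadjusted p under 0.05 there were 13 and 0, beside 4118 of all 20548 genes in either direction. The share called higher was 33.3%, beside 4.52% of all genes higher and 2.88% lower. A positive interaction was seen at 23, and the list's median response was -0.96 in the control and -0.69 in MMP2sh1. SQLE, squalene epoxidase, had 222, 215 and 220.5 CPM and then 82.9, 91.6 and 74.8 CPM in the control. MMP2sh1 had 211, 220.5 and 218 CPM and then 112, 115 and 119 CPM. The lines overlapped at day -2 and were separated at day +2 (interaction 0.49 ± 0.083, adjusted p = 0.000239). DHCR7, of the last step of synthesis, was called as well, at 0.41 ± 0.087 (adjusted p = 0.00297). The count of 8 became 4 without control replicate 1 or 3 of day -2 and 5 without MMP2sh1 replicate 2 of day -2, while the median stayed within 0.19 to 0.27. Among 20 fatty acid synthesis genes, 4 were called higher (20%) and 0 lower, among them the desaturase SCD at 0.39 ± 0.075 (adjusted p = 0.00111).

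Of 40 tested interferon-stimulated genes, 30 rose in the control and 24 in MMP2sh1, and 7 were called lower and 1 higher in the interaction (17.5% and 2.5%, beside 2.88% and 4.52% of all genes; median -0.15). IFIT1, a binder of foreign RNA ends, went from 8.11 ± 1.01 to 25.5 ± 0.818 CPM in the control and from 9.14 ± 1.30 to 14.4 ± 2.05 CPM in MMP2sh1 (interaction -0.99 ± 0.17, adjusted p = 0.000235). ISG15, a ubiquitin-like modifier, rose in the control and fell in MMP2sh1 (interaction -0.72 ± 0.15, adjusted p = 0.00303). Of 23 genes of antigen presentation, 2 were called lower (8.70%), the immunoproteasome subunits PSMB8 (-0.48 ± 0.091, adjusted p = 0.000845) and PSMB9 (-0.59 ± 0.15, adjusted p = 0.0126). CCL2, a monocyte chemokine, rose from 6.07 ± 0.762 to 21.9 ± 3.64 CPM in the control and from 5.27 ± 0.813 to 43.2 ± 1.74 CPM in MMP2sh1, and was called higher at 1.17 ± 0.17 (adjusted p = 3.18e-05).

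Most cytosolic ribosomal protein genes had small negative differences. Of 83 tested, 21 were called lower and 0 higher by edgeR's quasi-likelihood test (25.3% lower, beside 2.88% of all genes). The interaction was negative at 74, and the median was -0.17. At an unadjusted p under 0.05 there were 40 lower and 3 higher, beside 4118 of all 20548 genes in either direction. DESeq2 called 28 lower and 0 higher. RPL18 had 743, 757 and 715 CPM and then 712, 829 and 787 CPM in the control. Its MMP2sh1 levels were 816, 760.5 and 836 CPM and then 637, 645 and 686 CPM. The MMP2sh1 libraries lay above the control libraries at day -2 and below them at day +2 (interaction -0.37 ± 0.077, adjusted p = 0.00261). The count of 21 ran from 7 without control replicate 2 of day +2, where 1 gene was called higher, through 8 without MMP2sh1 replicate 2 of day +2, 9 without control replicate 3 of day +2, 10 without control replicate 3 of day -2 and 13 without MMP2sh1 replicate 3 of day +2, to 37 without MMP2sh1 replicate 1 of day +2. These genes have many near-identical pseudogenes, so their counts are uncertain.

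Of 38 DNA replication genes, 30 fell in each line, and 0 passed the interaction in the edgeR quasi-likelihood test, beside 7.4% of all genes. Their interactions ran from -0.22 to 0.24, with a median of 0.0085. At an unadjusted p under 0.05 there were 4 higher and 1 lower, beside 4118 of all 20548 genes in either direction. DESeq2 called 0 higher and 1 lower. Of 35 mitosis genes, 3 were called higher (8.57%, beside 4.52% of all genes) and 0 lower. The interaction was positive at 14 of them and negative at 21, with a median of -0.031. Leaving out 1 library gave 1 to 4 higher and 0 to 1 lower. MKI67, the proliferation marker, fell from 739.7 ± 42.8 to 526 ± 30.9 CPM in the control and from 628 ± 19.4 to 570.0 ± 33.1 CPM in MMP2sh1 (interaction 0.35 ± 0.077, adjusted p = 0.00395). Of 25 CDK inhibitor and p53 target genes, 2 were called higher and 5 lower (8% and 20%, beside 4.52% and 2.88% of all genes). The 5 lower calls became 2 without MMP2sh1 replicate 3 at day +2, control replicate 2 at day -2 or control replicate 2 at day +2, and 3 without MMP2sh1 replicate 3 at day -2, MMP2sh1 replicate 2 at day +2, control replicate 1 at day -2 or control replicate 3 at day +2. PLK2, a p53-inducible kinase, fell in both lines and more in MMP2sh1, from 209 ± 13.3 to 74.0 ± 5.53 CPM against 200.4 ± 7.76 to 114 ± 9.17 CPM (interaction -0.69 ± 0.09, adjusted p = 6.88e-06). The 13 mitochondrially encoded genes tested had 0 calls by edgeR and by DESeq2 and 0 at an unadjusted p under 0.05, with interactions from -0.20 to 0.21.

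Several genes with large differences belonged to none of the groups above, although TNFRSF11B is also counted in the osteoblast list below. F13A1, the coagulation factor XIII A chain that crosslinks fibrin and matrix (chromosome 6, positions 6144317 to 6321246 in GRCh37), had 3.07, 3.38 and 2.51 CPM and then 55.5, 51.5 and 40.9 CPM in the control. MMP2sh1 had 1.27, 1.64 and 1.83 CPM and then 162, 154 and 170.0 CPM. It was low in subconfluent cells of both lines and rose in both, 16.3-fold and 102-fold, with an interaction of 2.64 ± 0.18 (adjusted p = 3.20e-11). MIAT, a long noncoding RNA on chromosome 22 at positions 27042375 to 27072438, rose from 24.0 ± 1.23 to 183 ± 18.4 CPM in the control and from 10.2 ± 1.67 to 289 ± 42.7 CPM in MMP2sh1, and so crossed from below to above the control (interaction 1.88 ± 0.13, adjusted p = 4.79e-11). PDGFA, a growth factor for mesenchymal cells, had 55.3, 56.9 and 58.7 CPM and then 130.5, 133 and 134 CPM in the control. Levels in MMP2sh1 were 38.4, 41.2 and 45.6 CPM and then 199, 198 and 201 CPM. The same crossing without overlap was seen (interaction 1.03 ± 0.084, adjusted p = 8.01e-10). SLC12A7, a potassium-chloride cotransporter, and RGS16, a brake on G protein signalling, were called higher at 1.23 ± 0.11 (adjusted p = 5.00e-09) and 2.07 ± 0.17 (adjusted p = 1.47e-09). TNFRSF11B, the osteoclast inhibitor osteoprotegerin, rose from 14.4 ± 1.33 to 103 ± 4.63 CPM and from 16.7 ± 2.26 to 242 ± 19.2 CPM (interaction 1.00 ± 0.11, adjusted p = 6.17e-07).

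Other genes reversed their direction, lost their rise, rose less or fell further. NOV (CCN3), a matricellular protein of the CCN family, had 68.6, 70.2 and 75.9 CPM and then 183, 180.1 and 172 CPM in the control. In MMP2sh1 it had 58.4, 62.5 and 65.4 CPM and then 40.1, 48.2 and 48.1 CPM. It rose in the control and fell in MMP2sh1 (interaction -1.77 ± 0.10, adjusted p = 1.35e-13). GLUL, glutamine synthetase, did likewise, from 9.30 ± 0.359 to 20.2 ± 0.946 CPM in the control and from 11.2 ± 0.653 to 6.78 ± 1.52 CPM in MMP2sh1 (interaction -1.84 ± 0.17, adjusted p = 1.83e-08). GPR132, a proton- and lipid-sensing receptor, fell from 7.16 ± 1.64 to 2.94 ± 0.731 CPM in the control and rose from 3.23 ± 0.370 to 8.58 ± 0.271 CPM in MMP2sh1 (interaction 2.701 ± 0.26, adjusted p = 2.68e-08). RGS4, another brake on G protein signalling, rose from 4.48 ± 0.625 to 16.4 ± 1.40 CPM in the control and had 10.1 ± 1.67 and 12.2 ± 0.341 CPM in MMP2sh1 (interaction -1.58 ± 0.18, adjusted p = 6.75e-07). IGFBP4, which binds insulin-like growth factors, rose less in MMP2sh1 (interaction -0.64 ± 0.086, adjusted p = 8.73e-06). ZNF114, a zinc finger gene, fell in both lines, from 31.4 ± 1.76 to 16.5 ± 3.23 CPM in the control and from 59.9 ± 2.94 to 12.1 ± 0.646 CPM in MMP2sh1 (interaction -1.38 ± 0.14, adjusted p = 4.99e-08).

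Some of the largest fitted differences belonged to genes near the detection limit, and their values are better read in CPM. PCK1, the cytosolic enzyme of gluconeogenesis, had 0 reads in all 3 control libraries at day -2 and 3.23, 6.95 and 7.96 CPM at day +2, a rise of at least 298-fold against a floor of 3 counts over the group. The MMP2sh1 libraries had 0, 0 and 0.0974 CPM and then 0.0775, 0.536 and 0.0478 CPM. NPPB, a natriuretic peptide gene, had 1.43, 1.16 and 1.25 CPM and then 0, 0.196 and 0.0242 CPM in the control, and went from 2.32, 3.31 and 2.58 CPM to 0 reads in all 3 libraries in MMP2sh1, at least 104-fold lower. ANXA8L2, an annexin copy with near-identical paralogs and so of uncertain count, had 1.88, 1.94 and 2.48 CPM and then 0 reads in the control, and 1.56, 1.66 and 2.14 CPM and then 0.181, 0.0255 and 0.215 CPM in MMP2sh1. All 3 passed the interaction test (adjusted p = 0.0235, 0.02 and 0.00713), and each lost the call when counts were divided by 2. PCK1 also lost it without MMP2sh1 replicate 3 at day -2. NPPB lost it without control replicate 2 at day +2 or MMP2sh1 replicate 3 at day +2.

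The counts of the other lists are read beside 4.52% of all genes higher and 2.88% lower. Guidance genes, the ephrins, semaphorins, slits and their receptors, were called higher 8 times and lower 5 times of 43 (18.6% and 11.6%), including NRP1, a semaphorin and VEGF coreceptor (0.70 ± 0.091, adjusted p = 5.91e-06), EPHA4, an ephrin receptor (1.66 ± 0.25, adjusted p = 3.71e-05) and the ligand EFNA3 (-0.99 ± 0.15, adjusted p = 3.24e-05). YAP and CCN targets were called higher 7 times and lower 2 times of 28 (25% and 7.14%), with PTPN14, a phosphatase that restrains YAP, at 0.71 ± 0.092 (adjusted p = 6.05e-06). The lower calls were NOV, described above, at -1.77 and FOXF2 at -0.67. TGF-beta genes were called 4 times higher and 3 times lower of 23, immediate early genes 2 and 4 of 29, actin and SRF genes 3 and 4 of 32, WNT genes 1 and 3 of 37, Notch genes 2 and 0 of 19, the IGF axis 2 and 2 of 16, lysosomal genes 1 and 3 of 43, NRF2 targets 3 and 2 of 25, unfolded protein response genes 3 and 0 of 21, osteoblast genes 4 and 0 of 18 (22.2% higher), and beta protocadherins 2 and 0 of 18. Zinc finger genes named ZNF and a number were called 17 times higher and 8 times lower of 472 (3.60% and 1.69%). These shares lie near those of all genes, and no difference from all genes is read from them. DESeq2 called 20 higher and 15 lower, beside 1036 and 820 of the 37891 genes that it tested. Leaving out 1 library gave 11 to 20 higher and 3 to 12 lower zinc finger genes, with 11 higher without control replicate 1 at day -2, and with 3 to 5 lower without that library, control replicate 2 at day -2, control replicate 2 or 3 at day +2 or MMP2sh1 replicate 3 of either day. Higher TGF-beta genes became 7 without MMP2sh1 replicate 1 at day +2, lower WNT genes 5 and lower lysosomal genes 7 without MMP2sh1 replicate 1 at day -2, and higher unfolded protein response genes 5 without control replicate 1 at day +2. Lower guidance genes became 3 without MMP2sh1 replicate 2 or 3 or control replicate 3 at day +2. Higher osteoblast genes became 2 without control replicate 1 or MMP2sh1 replicate 2 at day -2. Lower immediate early genes became 0 without control replicate 2 at day +2, 1 without control replicate 3 at day +2 and 2 without control replicate 1 or 3 at day -2, MMP2sh1 replicate 3 at day -2 or MMP2sh1 replicate 2 at day +2. The remaining lists were chemokines and cytokines with 2 and 2 of 21, complement 2 and 0 of 16, EGF family 1 and 1 of 17, cysteine cathepsins 0 and 1 of 11, the MMP2 axis 1 and 1 of 8, and metallothioneins with 0 of 6. Epithelial markers had 2 and 1 of 11, mesenchymal markers 3 and 1 of 10, and blood and endothelial markers 0 of 5 and 0 of 8.

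**Figure D5:**
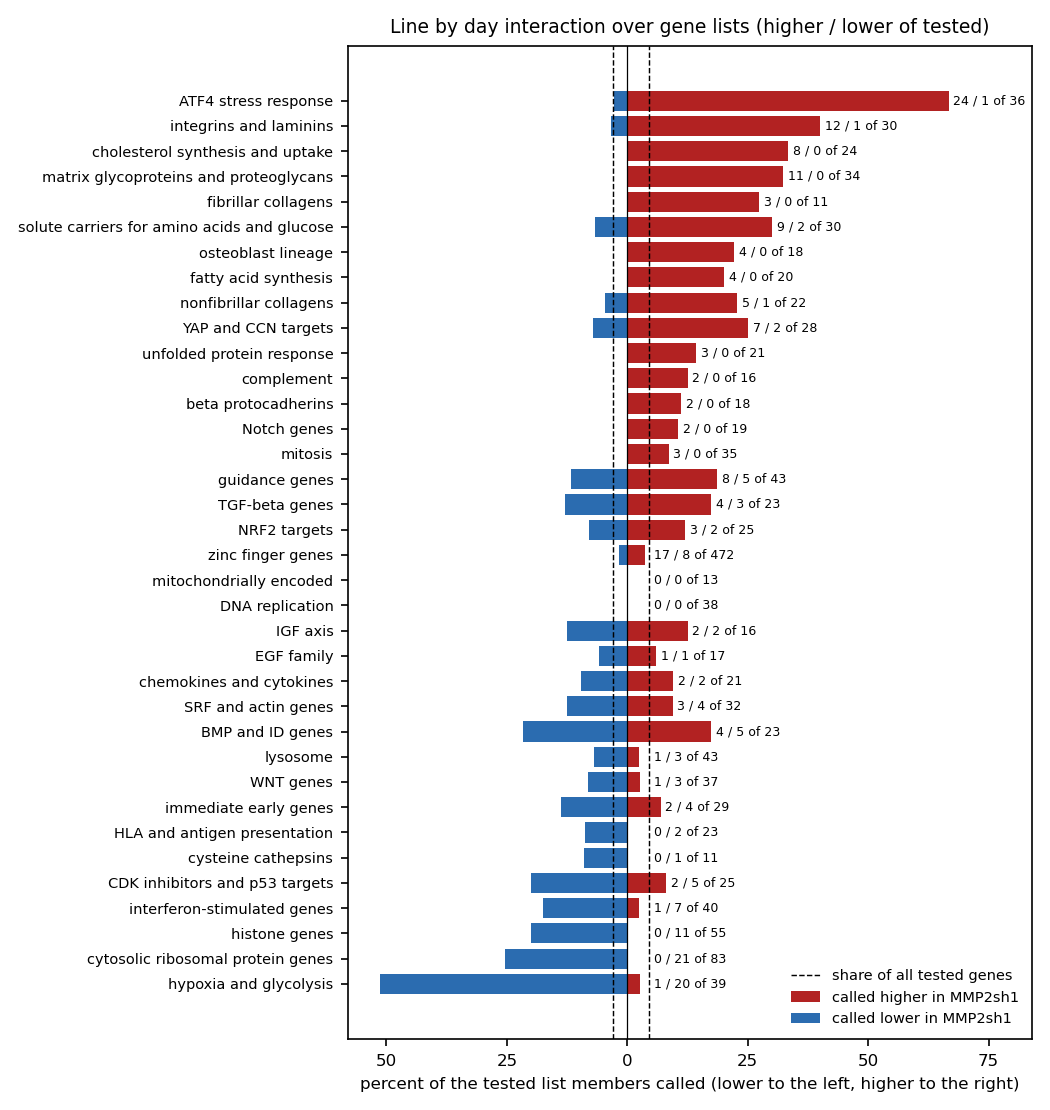
Percent of the tested members of each gene list with at least 10 members (vertical axis) that were called higher (red, to the right) or lower (blue, to the left) in the interaction (horizontal axis, percent); the numbers are higher / lower of tested and the dashed lines mark the shares of all tested genes, 4.52% and 2.88%. The ATF4 list stands out to the right with 24 of 36 and the hypoxia and glycolysis list to the left with 20 of 39.

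To place these differences in time, the interaction was split at confluence with the 6 day 0 libraries added. Of 21425 genes tested, 253 (1.18%) passed between day -2 and day 0 and 783 (3.65%) between day 0 and day +2, with 0.742% higher and 0.439% lower in the first step and 1.81% and 1.85% in the second. Of the 1520 interaction genes, 155 passed in the first step, 481 in the second, 20 in both and 904 in neither. The first step lost or gained calls with single libraries: it held 420 genes without MMP2sh1 replicate 1 at day -2 and 161 without MMP2sh1 replicate 2 at day 0. ID3, ID1, ID4 and SMAD6 passed in the second step and not in the first. ID3 had an interaction of -0.32 in the first step (adjusted p = 0.138) and -2.32 in the second (adjusted p = 2.35e-17), with 166 ± 19.5 CPM in the control and 142 ± 7.89 CPM in MMP2sh1 at confluence. The values were -0.16 and -1.79 for ID1 (adjusted p = 0.673 and 2.45e-12), -0.35 and -1.97 for ID4 (adjusted p = 0.454 and 7.08e-09) and -0.13 and -1.03 for SMAD6 (adjusted p = 0.743 and 1.97e-07). NOG gave -0.029 and 1.20 (adjusted p = 0.95 and 4.50e-11). SLC7A11 differed in both steps, by 0.91 and 0.74 (adjusted p = 8.03e-06 and 6.71e-05), as did HIST1H1C, by -0.60 and -0.79 (adjusted p = 0.000111 and 4.61e-07), and NOV, by -0.87 and -0.92 (adjusted p = 3.33e-07 and 2.13e-08). GPR132 differed in the first step, by 3.50 (adjusted p = 2.76e-08), and HK2 in the second, by -1.11 (adjusted p = 1.12e-06). Whether a gene's steps differ from each other was not tested.

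The same interaction can be read as a change in the difference between the lines. Of the 1520 genes, 721 differed between MMP2sh1 and the control at day +2 alone, 462 at day -2 alone, 58 at both days with the same sign, 119 at both days with opposite signs and 160 at neither, against 2280 of 20548 genes (11.1%) that differed at day -2 and 2568 (12.5%) at day +2. Over all genes, MMP2sh1 was above the control at 4.98% and below it at 6.12% at day -2, and above it at 6.70% and below it at 5.80% at day +2. ID3 and ID1 belonged to the genes that differed at day +2 alone, with line differences of 0.092 and 0.17 at day -2 and -2.53 and -1.77 at day +2. SLC7A11, MIAT, NOG, HIST1H2AC and MMP14 differed at both days with opposite signs, for example -0.52 and 1.15 for SLC7A11 and 0.67 and -0.67 for HIST1H2AC on the log2 scale.

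The line with the second hairpin, MMP2sh2, gave the same contrast against the same 6 control libraries, so its values are set beside those of MMP2sh1 and not counted as independent of them. There, 1029 of 20653 genes (4.98%) passed, 559 higher (2.71%) and 470 lower (2.28%). MMP2 depletion was weaker in that line, with 143 CPM at day -2 and 278 CPM at day +2, and the interaction of MMP2 was -0.12 (adjusted p = 0.433). ID3 had an interaction of -2.20 in MMP2sh2 beside -2.62 in MMP2sh1, ID1 -1.83 beside -1.93, ID4 -1.95 beside -2.30 and SMAD6 -1.18 beside -1.14, all past the test. NOG had 0.78 beside 1.19, F13A1 1.95 beside 2.64, MIAT 1.75 beside 1.88, SLC12A7 1.18 beside 1.23 and GPR132 3.23 beside 2.701. Of the ATF4 targets, SLC7A11 was at 0.86 beside 1.67, ASNS at 0.49 beside 1.01 and ALDH1L2 at 0.78 beside 1.83, each past the test, whereas PCK2 had 0.27 (adjusted p = 0.122). HIST1H2AC had -0.34 beside -1.35 and NOV -0.71 beside -1.77. HK2 had -0.90 beside -0.90, DDIT4 -0.54 beside -0.93 and BNIP3 -0.74 beside -0.97. Several matrix genes did not pass there: FN1 had -0.25 (adjusted p = 0.144), COL4A1 -0.22 (adjusted p = 0.121), ITGB1 0.12 (adjusted p = 0.353) and MMP14 -0.056 (adjusted p = 0.78), although ITGA6 (0.47), TNC (0.39) and COL22A1 (0.63) did, and COL3A1 passed in the other direction, at -0.41 (adjusted p = 0.0291) beside 0.62 in MMP2sh1. The difference between the hairpins was not tested.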

How the data were processed

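Poly(A) RNA of U2OS lines was sequenced in 27 libraries, of which 12 (3 per line and day) gave the interaction and 6 more at day 0 its split at confluence. Per the methods, adapters were removed (Trim Galore 0.6.0), reads were mapped on the hg19 genome (STAR 2.7.3a) and quality filtered (Samtools), and the authors counted exon reads per gene with HTSeq 2.0.0 in union mode without strand, so overlapping and antisense genes cannot be told apart. The annotation is not given in the sources used here. The deposited values are raw counts for 55882 symbols. HTSeq's lines that name no gene held 16.8 to 18.7% of the deposited counts in the 12 libraries and were left out.

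From these counts, genes were kept with filterByExpr (minimum count 10, minimum total 15), scaled by TMM and fitted with edgeR 4.0.16 in R 4.3.3 (glmQLFit and glmQLFTest). A gene was called at a Benjamini-Hochberg adjusted p under 0.05, over all tested genes. The SE is the log2 fold change divided by the square root of F. Levels are CPM with TMM factors, as mean ± SD, except the marker sums, which were scaled to the total reads assigned to genes. DESeq2 1.42.0, other scaling and filters, all 27 libraries, halved counts, a replicate block and leaving out each library were the alternatives. On simulated data, the fit recovered 39.4% of genes with a true log2 difference of 0.5, 56.7% at 1 and 70.1% at 2. A gene not called may therefore still differ. No pairing of libraries by replicate number was seen. Over 18 pairs of the same number, correlations of deviations ran from -0.029 to 0.030, beside -0.030 to 0.041 over 36 other pairs. Such correlations over all genes cannot exclude a batch that acts on few genes.

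The members and the gene lists were chosen with earlier results of these data known. Genes named were MMP2 and CTSB and, among called genes with a mean of at least 1 CPM in a group, the 12 largest differences, the 8 smallest adjusted p and the 5 highest levels in each direction, the 3 of smallest adjusted p in each response class and up to 6 in each list; ID2, VEGFA, DDR2, VLDLR and the genes that head the promoter sequences were named after their values were seen, and uncalled list members are named to show a list's range. Results of a few single genes that meet this rule are not reported here.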

Additional observations from a re-analysis of the deposited data

Results flagged for a closer look

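The lines differed in their response at 1520 genes, 928 higher and 592 lower, by the test of the difference itself, and each of these counts marks a difference between the lines. At 66 genes the control fell and MMP2sh1 rose, and at 31 the control rose and MMP2sh1 fell, each line past its own test.

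Among the genes reported here with opposite directions, the log2 interaction was -2.62 for ID3, -2.30 for ID4, -1.84 for GLUL, -1.77 for NOV, -1.74 for STC1, -1.37 for HIST1H1C, -1.02 for HIST1H4H, -0.99 for EFNA3, -0.90 for HK2, -0.72 for ISG15 and -0.39 for RPL28, which all rose in the control and fell in MMP2sh1. It was 2.701 for GPR132, 1.19 for NOG, 0.93 for PSAT1, 0.79 for SLC6A9, 0.78 for TNC, 0.75 for ITGA6, 0.74 for SLC1A4, 0.73 for SLC1A5, 0.71 for PTPN14, 0.50 for CD44, 0.40 for FADS1, 0.38 for ZYX and 0.36 for ACSL3, which fell in the control and rose in MMP2sh1. Groups held 3 libraries, so no library was tested as an outlier.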

How the results depend on the processing

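The interaction called 1520 genes, and 1371 with a replicate block, although no pairing by replicate number was seen over all genes. It called 1512 to 2080 under the other settings that kept all libraries and 934 to 1682 when 1 library was left out. The counts that moved by over 1.5 times were 1004 called without control replicate 2 at day +2 and 934 without control replicate 3 at day +2. The higher genes numbered 594 without control replicate 1 at day -2 and 599 without control replicate 3 at day +2. The lower genes numbered 925 with DESeq2 on all 27 libraries, 362 without control replicate 2 and 335 without control replicate 3 at day +2. The line difference at day -2 fell from 2280 to 1506 without control replicate 1 of that day. The step to confluence called 443 genes with DESeq2, 392 with DESeq2 on all 27 libraries, 420 without MMP2sh1 replicate 1 at day -2 and 161 without MMP2sh1 replicate 2 at day 0. The step past confluence called 520 and 476 without control replicates 2 and 3 at day +2, and with median-of-ratios scaling its split changed from 387 higher and 396 lower to 482 and 289. The interaction of MMP2sh2 fell from 1029 to 541 genes without control replicate 3 at day +2. The cause of these shifts was not tested. Leaving out 1 library gave 594 to 1017 higher and 335 to 665 lower genes, 1506 to 2415 for the line difference at day -2, 476 to 924 past confluence, 161 to 420 up to it and 541 to 1214 for MMP2sh2, and the MMP2 interaction ran from 0.093 to 0.30 and passed the test only without MMP2sh1 replicate 3 at day -2 (adjusted p = 0.0354). Of 4196 values for 211 named genes under the alternatives, 3881 kept direction and call, 314 kept direction and lost the call, 1 gained it and 0 reversed.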
